A study of Mus musculus with 15 samples.

Results

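The comparison described here sets 3 libraries of mouse embryonic fibroblasts treated with GSK343, which inhibits Ezh2, against 3 early control libraries that received scrambled guides. The 6 libraries were chosen by their labels alone, out of 15 in the series, and the measurement was chromatin accessibility by Omni-ATAC-seq, in which the Tn5 transposase cuts and tags open DNA. All 15 libraries are labelled with a C57/B16 background. The inhibitor libraries are labelled day 4: cells had 4 µM GSK343 for 3 days and 1 further day after it was washed out, and the labels name no vehicle control, no transduction and no sorting for them. The early control cells carried a CRISPRa-VPR-mCherry activation construct with scrambled guides and were sorted as mCherry+/THY1+; controls 1 and 2 are labelled Day 3 and control 3 Day 4. The protocols conflict on this, with 3 and 10 days for controls 1 and 2 and 4 and 11 days for control 3 and in the series' design, so whether the early controls share a time point is not settled by the labels. Late controls (day 10) and cells with early Fra2 activation (day 3), 3 libraries each, carried the same construct and appear below only for side-by-side values. Sample titles also carry S27 to S29 for the inhibitor libraries and S1 to S3 for the early controls, numbers whose meaning is not given. Inhibitor, construct, sorting, these numbers and, but for control 3 at Day 4, label day therefore cannot be told apart in this comparison. The labels do not say whether the replicates of a group came from different cultures; a p-value here weighs a difference against the spread among libraries, which may be technical.

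Ezh2 is the catalytic subunit of Polycomb repressive complex 2 (PRC2), which with Eed and Suz12 methylates lysine 27 of histone H3 (H3K27me3). The mark lies over silent developmental regulators such as the Hox genes, mostly at CG-rich promoters, and PRC1 complexes bind it through Cbx proteins. GSK343 competes with the methyl donor S-adenosylmethionine at Ezh2; in dividing cells the mark is then lost mainly by dilution. Accessibility reports how open a site is, not its H3K27me3 level or the transcription of a gene.

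The deposited table holds counts for 206367 consensus peaks, nearly all 502 bases long. Totals were 22.4, 21.6 and 25.3 M counts in the inhibitor libraries and 19.4, 14 and 6.75 M in early controls 1 to 3. Accessibility is given in CPM, counts per M counts, and 3 counts corresponded to between 0.117 CPM (inhibitor 3) and 0.42 CPM (control 3). Control 3 stood apart from its group. Its correlation across peaks was 0.783 with control 1 and 0.789 with control 2, against 0.925 between those libraries and 0.944 to 0.947 among the inhibitor libraries, and control 1 correlated with the inhibitor libraries at 0.922 to 0.925. Chromosome X held 0.634% of the peaks listed for control 3 and 1.38% to 1.71% of those listed for the other 5 libraries. The list of control 3 was also the shortest, with 114359 peaks against 188318 to 305369. Chromosome Y held 54 of its peaks and 58 to 67 in the other lists. The part of depth in the X share was not tested. Results are therefore given with and without control 3. Gene-start or gene-end peaks were present for 30 of 33 fibroblast markers, and the missing ones were Lum, Pi16 and Tcf21. Of the macrophage markers 6 of 16 had such a peak, and those without one included Ptprc, Adgre1 and Itgam. The macrophage peaks present had a median of 8.55 CPM with the inhibitor and 8.22 in the early controls, beside 11.6 and 14.2 for fibroblast markers. Epithelial markers had a start or end peak at 12 of 18 (medians 3.46 and 4.19 CPM) and pluripotency markers at 11 of 22 (4.78 and 5.19). Endothelial markers had one at 10 of 17, with none at Pecam1 or Tie1, and their summed level was 46.7 to 48.9 CPM with the inhibitor and 51.8 to 66.3 in the early controls. The neuronal sum was 76.7 to 79.4 against 87.6 to 93.5 CPM. The muscle sum was 11 to 13.8 against 14.3 to 15.8, both without overlap. The fibroblast sum was 355 to 378 against 356 to 486. These sums take the most accessible start or end peak of each gene, for 14 neuronal and 4 muscle markers of 18 each. All 26072 such peaks had a median log2 fold change of −0.16. Over all peaks of each list, the neuronal sum was 942 to 959 CPM with the inhibitor against 913 to 945. The muscle sum was 428 to 433 against 414 to 422. The endothelial sum was then 943 to 951 against 985 to 988, and the fibroblast sum 5080 to 5160 against 4810 to 5330. The part of cell mixture in the results was not tested.

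Of 206349 tested peaks, 1139 were higher with the inhibitor (0.552%) and 704 lower (0.341%), by edgeR's quasi-likelihood test at a Benjamini-Hochberg adjusted p under 0.05. Without control 3, 2933 were higher (1.42%) and 4632 lower (2.24%). Of the peaks first called, 1044 higher (91.7%) and 515 lower (73.2%) were called again without control 3. Peaks called higher had a median of 5.55 CPM with the inhibitor and 3 in the early controls, a median log2 fold change of 0.86, and 268 of them exceeded a 2-fold difference. Peaks called lower had 3.43 against 6.35 CPM, a median of −0.87, and 253 exceeded it. The 3 inhibitor libraries did not overlap the 3 controls at 1130 of the higher and 594 of the lower peaks. These peaks were selected by a test on the same libraries, so this separation adds no support to the calls. Among the controls, control 3 was the lowest at 578 of the higher peaks and the highest at 335 of the lower ones (over all peaks it was lowest at 40.6% and highest at 41.3%). The median over all peaks was 0.00, and 0.02 without control 3.

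**Figure D1:**
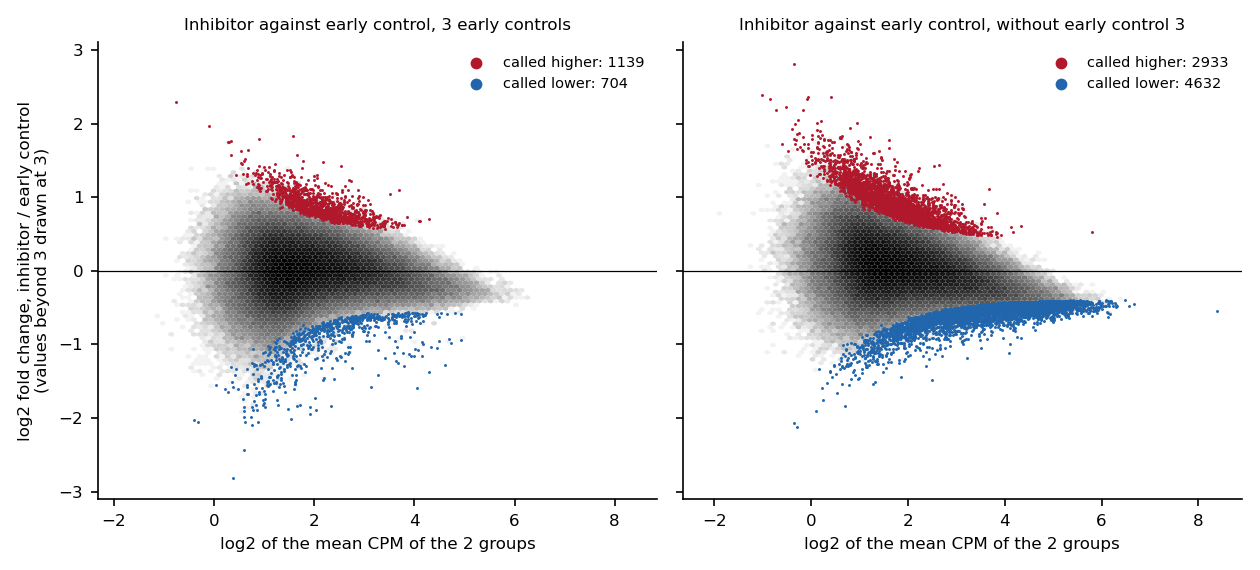
Log2 fold change of every tested peak (inhibitor over early control, vertical axis) against the log2 of its mean CPM over both groups, with control 3 in the fit on the left and without it on the right; coloured points are peaks called higher or lower. Without control 3 the lower calls rise from 704 to 4632 and gather at the more accessible peaks, while the higher calls rise from 1139 to 2933.

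Few calls held when single libraries were left out. Only 59 higher peaks and 13 lower peaks were called both in the full fit and in each of the 6 fits that left out 1 library of the comparison; 34 of these higher peaks lay in gene bodies, 25 outside genes and 0 at gene starts. A fit restricted to the 6 libraries called 10 higher and 1 lower, all of them among these peaks. Their edgeR adjusted p in that restricted fit was 0.0122 to 0.0407. The fold changes, SE and smaller adjusted p printed for them below are from the fit of all 15 libraries, where 5 groups share the estimate of spread.

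Of those 11 peaks, 2 lay in a dense run of peaks just beyond the 3′ end of Csf1, which encodes the macrophage growth factor M-CSF. The peak at chr3:107734697-107735198 (mm10) had 9.89, 7.4 and 7.89 CPM in the inhibitor libraries, 2.84, 3.48 and 3.08 in early controls 1 to 3, and 5.9, 6.64 and 6.21 in the late controls. The inhibitor libraries lay above all early and late controls. The log2 fold change against the early control was 1.42 ± 0.18 (SE; edgeR adjusted p = 1.22e-05) and against the late control 0.42 (adjusted p = 0.0892). From its first to its last called peak the run covers 17 peaks over 12.2 kb; 13 were called higher (12 without control 3), and their summed CPM was 127, 133 and 125 with the inhibitor against 74.4, 78.5 and 69.1 in the early controls, 99 to 114 in the late controls and 99.3 to 123 with early Fra2 activation. The early controls were the lowest of these 4 groups, with no overlap with any of them. At the other 36 peaks of Csf1 the median fold change was 0.06 with 0 called, and its gene-start peak had a log2 fold change of 0.23 ± 0.15 (adjusted p = 0.502).

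Cdkn1a encodes p21, the cyclin-dependent kinase inhibitor that p53 induces. Its peak at chr17:29100543-29101044, over the 3′ end of the gene, had 17.8, 17.5 and 17.4 CPM with the inhibitor and 8.21, 7.98 and 8.4 in the early controls. The late controls had 5.23, 6.58 and 5.79, so both control groups lay apart from the inhibitor libraries. The log2 fold change was 1.10 ± 0.15 against the early control (adjusted p = 5.96e-05) and 1.58 against the late control (adjusted p = 3.80e-10), by edgeR. Summed with its neighbouring peak, the value was 26.8 to 28.8 CPM with the inhibitor, 13.6 to 14.7 in the early controls, 9.2 to 10.3 in the late controls and 4.83 to 6.98 with early Fra2 activation. The gene-start peak of Cdkn1a had 20.1 ± 1.33 CPM (SD, n = 3) with the inhibitor and 20.3 ± 3.99 (SD, n = 3) in the early control, and the other 17 peaks of the gene had a median of −0.07 with 0 called. Among CDK inhibitor and senescence genes as a list, 6 of 239 peaks were higher, 2 of them those of Cdkn1a, and 0 lower (all peaks 0.552% and 0.341%), with a median of −0.06.

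The other peaks called in the 6-library fit lay in or near genes of unlike roles. The SE and adjusted p printed for them are from the fit of all 15 libraries. Lrba, a vesicle-trafficking protein, had a body peak at 6.73, 6.54 and 6.95 CPM against 2.47, 2.68 and 1.82 in the early controls (log2 fold change 1.48 ± 0.19, edgeR adjusted p = 1.22e-05). A body peak of Ndufa10, a subunit of respiratory complex I, had 5.58, 5.31 and 4.27 against 2.04, 1.52 and 1.68 CPM (adjusted p = 5.96e-05; log2 fold change 1.47 without control 3). Brinp1, a gene of the nervous system, had 5.06, 4.22 and 4.7 against 1.77, 1.09 and 1.96 CPM, and its late controls, at 3.26 to 4.48, overlapped the inhibitor libraries. Early Fra2 activation had 6.2 to 7.35 CPM at the Lrba peak and 6.05 to 6.5 at that of Ndufa10, at or above the inhibitor level. At Brinp1 it had 2 to 3.61, under the inhibitor libraries. Tbc1d1, a Rab GTPase-activating protein, and Tfcp2, a transcription factor, had log2 fold changes of 1.15 ± 0.19 and 1.29 ± 0.23. Fgd5, an activator of Cdc42, had 1.30 ± 0.20 against the early control and 0.13 against the late control. The peak at chr14:92303086-92303587, with no protein-coding gene within 100 kb, had 5.85, 3.68 and 4.66 against 1.72, 0.943 and 1.12 CPM (1.83 ± 0.24, 1.37e-05). It was the single peak called against a fold change of 1.5. The lower one, in the body of Tcf7l1, which encodes a Wnt pathway repressor of the TCF family, had 2.9, 3.4 and 2.72 against 8.69, 7.98 and 4.9 CPM (−1.31 ± 0.19, adjusted p = 7.79e-05).

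**Figure D2:**
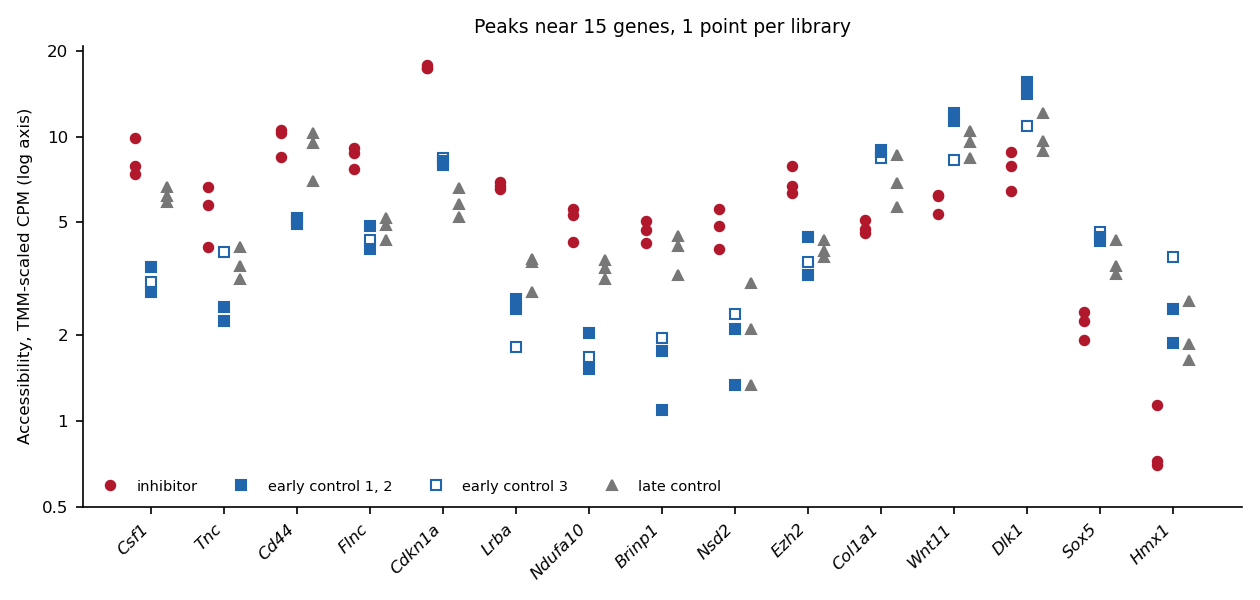
CPM (log axis) of one peak for each of 15 genes in the 3 inhibitor libraries, the 3 early controls (control 3 hollow) and the late controls (triangles). At Csf1 and Cdkn1a the inhibitor points lie above every control, and at Brinp1 they overlap the late controls.

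After Csf1, the genes with the most higher peaks that met the conditions for naming were Tnc, Cd44, Flnc, Itgb1 and Myh9. Each run spans a gene's outermost peaks of this kind (called with and without control 3, groups not overlapping), so it was placed with the calls known and its sums are a description. Tnc encodes tenascin-C, a matrix glycoprotein; 8 of 32 peaks in a 27.4 kb run were called higher (13 without control 3), with a summed 143, 136 and 148 CPM against 95.7, 94.6 and 94.9 in the early controls and 108 to 126 in the late controls. At Cd44, the hyaluronan receptor, 4 of 8 peaks in a run beyond the 3′ end were called, with 55.2, 55.1 and 53.8 against 36.5, 34.3 and 30.4 CPM; the late controls, at 43.9 to 55.3, overlapped the inhibitor libraries. A further called peak of Cd44, next to the run, had 5.23, 3.59 and 5.52 against 3.76, 2.03 and 0.7 CPM, where the groups overlapped, and was not called without control 3. At Flnc, encoding the actin crosslinker filamin C, 4 of 4 peaks beyond the 3′ end were called, with 27.8, 27 and 28.2 against 13.6, 14.4 and 15.8 CPM, 14.4 to 16.8 in the late controls and 17.7 to 20 with early Fra2 activation. Flnc is thus a run where the inhibitor libraries lay above the early control, the late control and early Fra2 activation. Myh9, nonmuscle myosin heavy chain IIA, had 4 of 28 called (188, 180 and 183 against 150, 139 and 135 CPM), and Itgb1, the integrin β1 subunit, 5 of 39 (245, 240 and 251 against 233, 234 and 176 CPM). At Itgb1 controls 1 and 2 lay close to the inhibitor libraries and control 3 stood apart. Leaving out 1 library ended calls here: every called peak of Tnc, Myh9 and Itgb1 was lost in at least 1 such fit, mostly without an inhibitor library or control 2, while 1 peak of Flnc, 1 of Cd44 and 3 of Csf1 held in all 6.

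**Figure D3:**
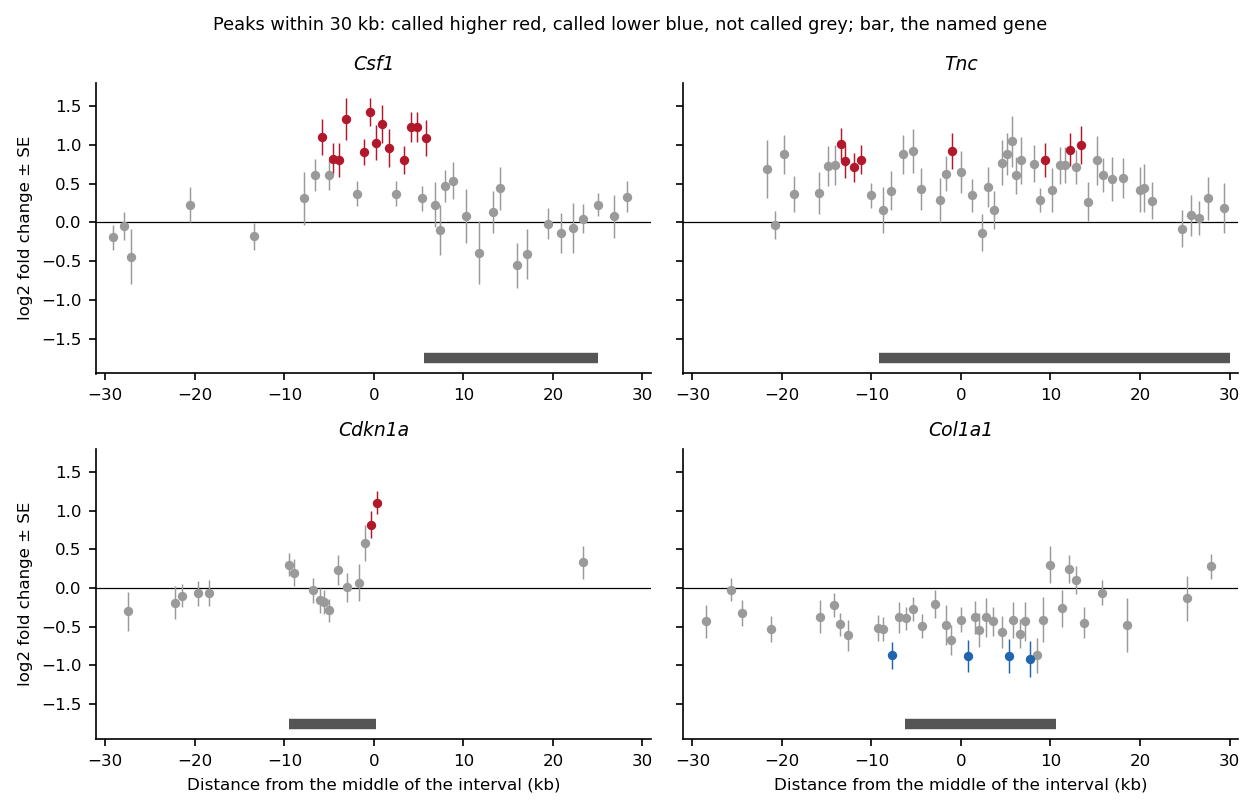
Log2 fold change (inhibitor over early control) with its SE for each peak within 30 kb of Csf1, Tnc, Cdkn1a and Col1a1; the horizontal axis is distance in kb from the middle of the gene's run of called peaks, the bar is the gene, red points are called higher, blue lower, and grey not called. The called peaks of Csf1 crowd at and past one end of the gene, those of Cdkn1a sit at one end, and all 20 peaks of the Col1a1 run lie under 0.

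Among the lower peaks, Col1a1 had the most that met these conditions. Col1a1 encodes the main chain of type I collagen; 4 of 20 peaks across 15.9 kb were called lower (7 without control 3), all 20 had a negative fold change, 1 called peak held in each fit that left out 1 library, and the summed values were 95.7, 101 and 99.5 CPM with the inhibitor, 137, 144 and 131 in the early controls and 119 to 151 in the late controls. Early Fra2 activation had 114 to 128, so the inhibitor libraries lay below the early controls, the late controls and early Fra2 activation. At Mettl23, a methyltransferase gene, 3 of 3 peaks were lower (5.89, 5.49 and 4.54 against 10.7, 11.9 and 12 CPM), also in comparison with the late control. At Adamts16, a secreted metalloprotease, 3 of 7 were lower (38.3, 37.1 and 37.1 against 48.5, 52.6 and 41.7 CPM). Single called peaks with larger folds had few counts, and each lost its call without control 2: a peak in Slc24a3, a sodium, calcium and potassium exchanger, had 0.615, 0.772 and 0.699 against 2.09, 2.98 and 1.82 CPM (log2 fold change −1.74 ± 0.37), and a peak 25.8 kb from Bub3, a spindle checkpoint protein, 0.528, 0.726 and 0.466 against 1.02, 2.54 and 3.78 (−1.99 ± 0.49), where the early controls spread widely. Of the higher ones Adgrv1, an adhesion G protein-coupled receptor, had 1.98, 0.999 and 1.36 against 0.161, 0.508 and 0.56 CPM (1.96 ± 0.53), close to the depth floor. Nfat5, an osmotic stress factor, had 2.37, 3 and 2.1 against 1.02, 0.726 and 0.42 (1.65 ± 0.35).

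Most calls at gene starts were lower. A gene-start peak lies within 1 kb of a listed RefSeq start. Of 20918, 5 were higher (0.0239%) and 124 lower (0.593%), with a median log2 fold change of −0.17; without control 3 there were 17 higher and 2072 lower (9.91%), median −0.22, and DESeq2 called 5 higher and 283 lower. Peaks at gene ends of genes with no listed start had 11 higher (0.213%) and 31 lower (0.601%) of 5154, with a median of −0.15. Peaks in gene bodies had 561 higher and 274 lower of 96418, and peaks with no gene within 100 kb had 201 higher and 95 lower of 23377, with medians of 0.02 and 0.08. The share of all counts falling on gene-start peaks was 19.5%, 19.4% and 19.3% with the inhibitor and 22.6%, 22.2% and 19.6% in early controls 1 to 3. Controls 1 and 2 stood above the inhibitor libraries while control 3 lay next to them. The late controls had 19.5%, 21.3% and 21.5%, the first at the inhibitor level, and early Fra2 activation had 18.9%, 18.6% and 17.7%. When the scaling was taken from gene starts alone, start peaks had 149 higher, 124 lower and a median of −0.01, and the median over all peaks moved to 0.16. Fits with only the 6 libraries called 0 gene-start peaks in either direction.

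The 6 promoters that follow belong to the genes whose start peaks had the largest folds among those called lower and higher, and show the CG content before each start; they were picked after their values were seen. The called peaks of Npas1, Ankrd23 and Aqp7 lie within 1 kb of the start but do not overlap the bases printed. Each run is the 250 bases before the listed start in RefSeq on mm10, 5′ to 3′ on the gene's strand, with every CG in capitals. Hmx1 (chr5:35388611-35388860, + strand, 29 CG), Npas1 (chr7:16476781-16477030, − strand, 14 CG) and Pak7 (chr2:136387968-136388217, − strand, 7 CG) were lower; Ccr1 (chr9:123968693-123968942, − strand, 1 CG), Ankrd23 (chr1:36536557-36536806, − strand, 5 CG) and Aqp7 (chr4:41048137-41048386, − strand, 0 CG) were higher.
Hmx1: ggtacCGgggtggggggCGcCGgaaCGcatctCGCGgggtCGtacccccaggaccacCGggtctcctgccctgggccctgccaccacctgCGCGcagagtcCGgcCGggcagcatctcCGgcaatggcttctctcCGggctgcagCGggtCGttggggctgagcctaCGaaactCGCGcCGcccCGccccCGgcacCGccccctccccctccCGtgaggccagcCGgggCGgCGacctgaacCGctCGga
Npas1: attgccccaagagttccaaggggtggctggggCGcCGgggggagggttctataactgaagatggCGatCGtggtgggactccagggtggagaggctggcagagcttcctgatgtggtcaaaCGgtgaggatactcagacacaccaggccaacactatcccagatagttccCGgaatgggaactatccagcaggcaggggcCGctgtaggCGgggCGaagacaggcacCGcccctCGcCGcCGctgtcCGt
Pak7: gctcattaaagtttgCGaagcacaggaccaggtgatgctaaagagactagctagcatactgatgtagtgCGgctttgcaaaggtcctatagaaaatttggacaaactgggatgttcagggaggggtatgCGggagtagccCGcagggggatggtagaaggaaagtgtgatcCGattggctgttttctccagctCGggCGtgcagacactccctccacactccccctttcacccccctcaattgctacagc
Ccr1: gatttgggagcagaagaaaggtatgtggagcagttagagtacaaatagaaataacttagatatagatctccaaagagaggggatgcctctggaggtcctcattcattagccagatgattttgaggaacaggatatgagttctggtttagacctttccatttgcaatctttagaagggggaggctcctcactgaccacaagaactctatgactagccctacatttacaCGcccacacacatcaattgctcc
Ankrd23: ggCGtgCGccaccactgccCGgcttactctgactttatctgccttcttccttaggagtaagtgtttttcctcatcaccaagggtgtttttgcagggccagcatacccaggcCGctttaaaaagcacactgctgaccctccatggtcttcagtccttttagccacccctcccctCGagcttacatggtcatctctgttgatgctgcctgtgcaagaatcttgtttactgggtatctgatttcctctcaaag
Aqp7: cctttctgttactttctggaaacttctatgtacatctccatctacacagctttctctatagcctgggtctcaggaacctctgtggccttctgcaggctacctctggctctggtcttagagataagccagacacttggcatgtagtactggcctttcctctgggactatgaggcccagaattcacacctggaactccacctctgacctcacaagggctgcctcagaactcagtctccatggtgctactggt

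Hmx1, a homeobox gene, had 1.14, 0.726 and 0.699 CPM against 1.88, 2.47 and 3.78 (log2 fold change −1.59 ± 0.37, edgeR adjusted p = 0.0242). Npas1, a neuronal transcription factor, had 1.8, 1.77 and 1.36 against 3.33, 4.64 and 4.2 CPM (−1.29 ± 0.25, 0.00654), and Pak7, a p21-activated kinase, 1.32, 1.91 and 1.44 against 2.52, 4.28 and 4.9 CPM (−1.28 ± 0.30, 0.0261). In all 3 the inhibitor libraries lay under the controls, which was a condition for their selection. Ccr1, a chemokine receptor, had 7.91, 7.99 and 8.08 against 5.37, 3.41 and 3.22 CPM (0.93 ± 0.18, 0.00618). Ankrd23, a muscle ankyrin-repeat protein, had 6.37, 6.67 and 7.07 against 2.9, 3.12 and 5.46 CPM (0.91 ± 0.20), and Aqp7, a glycerol channel, 6.59, 7.44 and 7.69 against 3.38, 3.41 and 6.02 CPM (0.86 ± 0.19). Each of these 6 calls was lost without control 2, and those of Hmx1, Pak7 and Ankrd23 also without any 1 inhibitor library. The remaining 2 higher start peaks were at Tagln3 and Tlcd2. Among further lower start peaks, Crebbp, an acetyltransferase of H3K27, had 4.97, 4.72 and 4.74 against 6.76, 7.69 and 11.5 CPM (−0.78 ± 0.17, 0.0144). Mnx1, a homeobox gene of motor neurons, had 2.02, 1.54 and 1.67 against 3.17, 3.19 and 6.44 CPM (−1.19 ± 0.26, 0.0147).

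Across start peaks the fold change ran with CG content. With 0 to 2 CG the counts were 2 higher and 3 lower of 949 and the median was −0.02; with 3 to 9, 2 and 10 of 4130, median −0.11; with 10 to 19, 1 and 32 of 7939, median −0.17; with 20 or more, 0 and 79 of 7900, median −0.20. The same order held without control 3, from −0.02 to −0.26, and in the comparison with the late control, from 0.06 to −0.15, but not against early Fra2 activation, where the medians were 0.05, 0.07, 0.06 and 0.04. Peaks called lower had a median of 22 CG and peaks called higher 5, against 16 for all start peaks. Accessibility moved with the same bins, with median CPM from 3.71 at the lowest CG bin to 7.93 at 10 to 19 and 7.69 at 20 or more. Its part in the order was not tested.

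**Figure D4:**
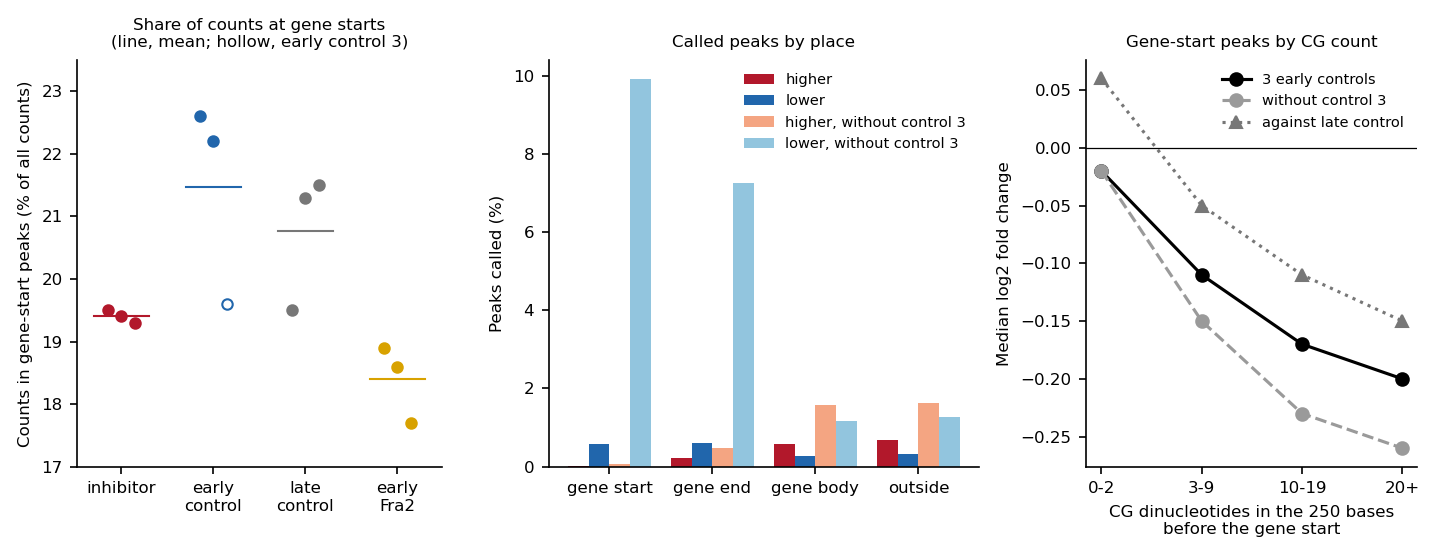
Left, percent of each library's counts on gene-start peaks; middle, percent of peaks called higher or lower by place; right, median log2 fold change of start peaks by number of CG in the 250 bases before the start. The inhibitor libraries lie at 19.3% to 19.5%, and the median falls from −0.02 to −0.20 as CG number rises.

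In the full fit no peak near PRC1 or Hox genes was called by edgeR, while PRC2 genes and developmental regulators listed here as Polycomb targets had some called peaks. These target lists are lists of gene names, and neither Polycomb binding nor H3K27me3 was measured in these libraries. The scaling from gene starts, whose medians follow in brackets, moved every list median given next to above 0. Of 171 peaks near PRC2 genes 1 was higher and 0 lower, with a median of −0.03 (0.12), and of 329 near PRC1 genes 0 and 0, median −0.13 (0.02). Hox genes had 0 and 0 of 310 peaks, median −0.13 (0.02). Mesodermal Polycomb targets had 1 higher and 4 lower of 677, median −0.08 (0.07), and neural and endodermal ones 4 (0.702%) and 5 (0.877%) of 570, median −0.09 (0.06). Over all peaks 0.552% were higher and 0.341% lower. The neural shares rest on 4 and 5 peaks, and the PRC2 share of 0.585% higher, near the background, on 1. Without control 3, PRC2 genes had 4 higher and 4 lower, PRC1 genes 2 and 11, and Hox genes 1 and 4. Mesodermal targets then had 7 and 14, and neural and endodermal ones 5 and 7, both under the 1.42% and 2.24% over all peaks. Gene-start scaling called 9 higher and 0 lower near PRC2 genes, 10 and 0 near PRC1 genes and 2 and 0 near Hox genes. Mesodermal targets had 20 and 4, and neural ones 24 and 4. Over all peaks it called 9106 and 518 of 206349.

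The 1 PRC2 peak lies in the body of Ezh2 itself, with 6.73, 6.35 and 7.92 CPM against 4.45, 3.27 and 3.64 in the early controls (log2 fold change 0.86 ± 0.18, edgeR adjusted p = 0.011). Early Fra2 activation, with no inhibitor, had 8.35, 8.95 and 9.51 CPM at this peak, above the inhibitor libraries, and the late controls had 3.78 to 4.34. The inhibitor libraries lay above all early controls, which was a condition for naming the peak, and the call was lost without inhibitor 3 and without control 2. At the Ezh2 start peak the values were 20.6, 18 and 16.2 against 25.3, 25.3 and 17.9 CPM (−0.34 ± 0.16, adjusted p = 0.295), and at Suz12 18.3, 16.7 and 18.1 against 30.5, 23.4 and 18.8 (−0.47 ± 0.16, adjusted p = 0.131). Without control 3 both were called lower, at −0.47 and −0.61. Ezh1, the paralog of Ezh2, had −0.02 ± 0.19 and Eed −0.36 ± 0.16, neither called. The Cdkn2a start, a classic Polycomb target in fibroblasts, had 10.8, 10.6 and 10.7 against 15, 11.7 and 9.24 CPM, an overlap. Nsd2, which methylates H3K36, had a peak at 4.04, 5.58 and 4.86 against 1.34, 2.1 and 2.38 CPM (1.39 ± 0.25, 0.0026), and Arid1b, a BAF subunit, one at 1.06, 0.908 and 1.05 against 2.25, 2.68 and 2.52 (−1.29 ± 0.33, 0.0372).

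Developmental regulators, signalling genes and others changed at single peaks in both directions, all called by edgeR. Peaks outside genes were named by the nearest gene, which need not be the gene a site acts on. A peak 12.1 kb from Twist1, a mesenchymal bHLH factor, had 6.02, 5.72 and 5.79 against 2.79, 4.28 and 1.54 CPM (log2 fold change 0.94 ± 0.21). A peak at the same distance from Gsx2, a forebrain homeobox gene, had 5.67, 6.26 and 6.53 against 3.33, 2.25 and 3.92 CPM (adjusted p = 0.0221), and a log2 fold change of 1.84 against the late control. A body peak of Sox5, a chondrogenic SOX factor, had 1.93, 2.41 and 2.25 against 4.29, 4.43 and 4.62 CPM (−1.01 ± 0.23). In each of the 3 the groups did not overlap, which was a condition for naming the peaks. A body peak of Wnt11, a Wnt ligand, had 5.36, 6.22 and 6.18 against 12.1, 11.4 and 8.26 CPM (−0.87 ± 0.16), and one 39.5 kb from Dlk1, an imprinted Notch-related ligand, 8.84, 6.45 and 7.92 against 14.1, 15.6 and 10.9 (−0.83 ± 0.16). A peak 1.36 kb from Btg2, an antiproliferative p53 target, had 13.4, 10.8 and 11.8 against 8.26, 7.62 and 4.76 CPM (0.74 ± 0.16), and 1.43 against the late control. A peak 12.4 kb from Ppargc1a, a coactivator of mitochondrial genes, had 3.17, 3.72 and 3.61 against 1.5, 1.38 and 1.82 (1.19 ± 0.25). Early Fra2 activation had 5.76 to 7.51 CPM at the Twist1 peak and 3.92 to 4.84 at that of Ppargc1a, at or above the inhibitor level. At Gsx2 and Btg2 it had 2.14 to 2.88 and 3.46 to 5.44, under the inhibitor libraries. Of these 7 peaks the one in Wnt11 was called in all 6 fits that left out 1 library, Btg2 was lost without inhibitor 1, inhibitor 3 or control 2, Dlk1 without inhibitor 2 or control 2, Ppargc1a without inhibitor 2, inhibitor 3 or control 2, Twist1 without any 1 inhibitor library or control 1, and Gsx2 and Sox5 without any 1 inhibitor library or control 2.

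The fibroblast list had 16 higher (1.5%) and 10 lower (0.939%) of 1065 peaks, the myofibroblast list 10 and 3 of 880, and AP-1 target genes 10 and 5 of 704, against 0.552% and 0.341% over all peaks; under gene-start scaling these became 74 and 7, 59 and 1, and 40 and 1, beside 9106 and 518 of 206349 over all peaks. Single genes made up much of these counts: Tnc had 8 of the 16 higher fibroblast peaks, Myh9 4 of the 10 myofibroblast ones, and Cd44 and Itgb1, with 5 each, all 10 of the AP-1 target ones. The AP-1 family genes had 0 and 0 of 240, with a median of −0.15 that gene-start scaling moved to 0.01. Sterol, interferon and macrophage lists had 0 peaks called in either direction, over 263, 182 and 80 peaks. Gene sums, described below, had 0 higher and 2 lower of 26 sterol genes, 0 and 2 of 32 interferon genes and 1 and 0 of 14 macrophage genes. Over all genes 2.79% of sums were higher and 2.49% lower. Without control 3, AP-1 family genes had 0 higher and 18 lower (median −0.18), beside 1.42% and 2.24% over all peaks. The sterol list then had 1 and 13, the interferon list 1 and 5, and the macrophage list 0 and 0. Fibroblast, myofibroblast and AP-1 target lists had 44 and 44, 20 and 17, and 14 and 21.

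Counts were also summed over the peaks in a gene or within 10 kb of it. A peak between neighbouring genes enters both sums. Of 18547 genes 517 were higher (2.79%) and 462 lower (2.49%); without control 3, 1386 were higher (7.47%) and 1489 lower (8.03%). Among the listed genes 15 of 781 were higher (1.92%) and 37 lower (4.74%), shares on either side of the background, and 15 and 30 were also called without control 3. Under gene-start scaling the split over all genes turned to 2692 higher and 73 lower. The sums called in the fit of the 6 libraries included Csf1 (167, 180 and 165 against 108, 113 and 137 CPM, log2 fold change 0.54 ± 0.07), Tnc (325, 313 and 339 against 237, 247 and 255, 0.40 ± 0.05), Cd44 (350, 344 and 356 against 287, 287 and 290, 0.28 ± 0.05), and, as the single lower gene, Col1a1 (186, 185 and 189 against 231, 246 and 241, −0.36 ± 0.05). The inhibitor libraries did not overlap the early controls in any of these 4 genes, which were picked by a call on the same libraries. Trpc4, a cation channel, and Dcc, the netrin receptor, were also called in the fit of the 6 libraries, at 0.48 ± 0.06 and 0.37 ± 0.05. The fold changes and SE of these sums are from the fit of all 15 libraries.

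The 15 listed genes with higher sums included Fn1, Myh9, Tpm1 and Itgb1 beside Tnc and Cd44. Myh9 had 870, 848 and 852 against 776, 760 and 724 CPM (log2 fold change 0.18 ± 0.04, edgeR adjusted p = 0.00618). Sfrp4, a secreted Wnt antagonist, had 41.6, 40.3 and 41.7 against 35.5, 31.1 and 29.4 (0.34 ± 0.07, 0.0115). Lower sums were found for Fos, the AP-1 subunit, at 94.2, 98.4 and 96.8 against 135, 114 and 107 CPM (−0.31 ± 0.07, 0.0143) and for Hoxb13 at 4.38, 6.18 and 5.18 against 7.49, 7.79 and 7.77 (−0.55 ± 0.16, 0.0413). Col6a2 and Vim, a collagen VI chain and vimentin, had log2 fold changes of −0.36 and −0.25, both called lower. At Fn1, Tpm1 and Vim control 3 reached or passed an inhibitor library, so the groups overlapped. Without inhibitor 3 the calls of Fn1, Tpm1, Itgb1, Sfrp4, Fos, Hoxb13, Col6a2 and Vim were lost, and those of Tnc, Cd44, Myh9 and Col1a1 held in all 6 fits that left out 1 library.

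**Figure D5:**
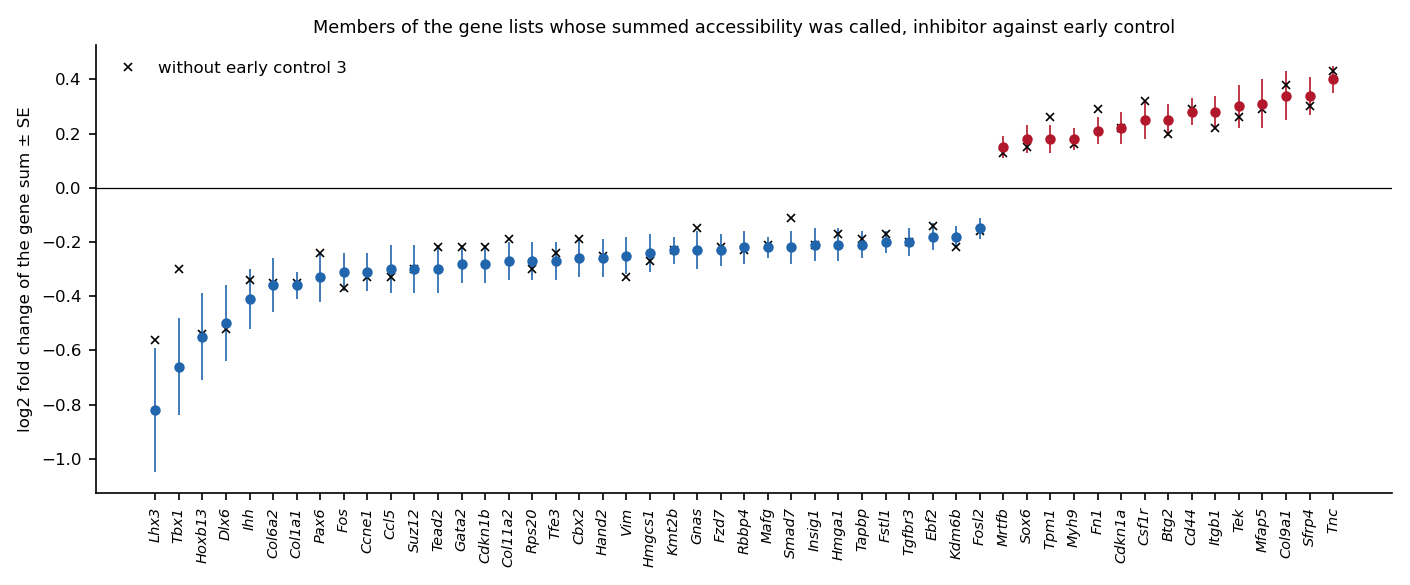
Log2 fold change (inhibitor over early control) with SE of the summed CPM of 51 listed genes called in either direction; crosses give the fold change without control 3. The 15 higher genes include Tnc and Cd44, and the 36 lower genes shown include Col1a1 and Fos.

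Compared with other groups in the same fit, the inhibitor libraries differed at more peaks. Against the late control 7450 were higher (3.61%) and 7587 lower (3.68%), and against early Fra2 activation 10736 were higher (5.2%) and 18613 lower (9.02%). Peaks called higher than the early control had a median log2 fold change of 0.44 against the late control and 0.04 against early Fra2 activation. Those called lower had −0.54 and −0.45. All 3 comparisons share the inhibitor libraries, and the groups also differ in label day or guides, so no overlap of calls between them is given.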

How the data were processed

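Omni-ATAC-seq libraries were compared at consensus peaks. The counts are the authors' deposited raw counts per peak and library, with no normalization. Peak lists per library, used here only to count listed peaks, carry the ratio (fold enrichment) and −log10 p or q values that the authors deposited; MACS2 and mm10 are named per the submitters' processing notes, and the aligner is not given in the sources used here. All 15 libraries entered 1 fit (edgeR 4.0.16 quasi-likelihood test, TMM scaling, low-count filter, group means, R 4.3.3), with p-values adjusted over all peaks; CPM are TMM-scaled and SE is the fold change divided by the square root of F. Gene starts, gene intervals and promoter sequences came from RefSeq tables on mm10. Peaks were named by the nearest protein-coding gene within 100 kb, and gene sums took peaks within 10 kb of the gene. Named peaks were called in the same direction with and without control 3, had no overlap between groups and a mean of at least 1 CPM in the higher group: the 10 largest rises and falls, the largest of each list, and the 6 genes with most such peaks each way; the largest rises and falls of gene sums followed the same conditions, while listed genes with a called sum were named without them. Start peaks of Ezh2, Ezh1, Eed, Suz12, Cdkn2a, Cdkn2b and Thy1 were named whatever their result, and peaks or sums called in the fit of the 6 libraries alone, printed promoters and runs were chosen after their values were seen. The members, lists (30) and tests were chosen with earlier results of these data known. The script was tested on simulated data. Alternatives were DESeq2 1.42.0, other scalings, filters, depth thinning, a fold threshold of 1.5, only the compared groups, and leaving out each library. Results for 2 genes are not reported here.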

Additional observations from a re-analysis of the deposited data

How the results depend on the processing

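Inhibitor against early control gave 1139 higher and 704 lower peaks. Gene-start scaling gave 9106 higher (94.6% of calls), loess offsets 3228 higher and 2050 lower, total-count scaling 2100 higher (71.4%, against 61.8%), thinning to the smallest library 207 and 194, the 6 libraries alone 10 and 1, and a fold threshold of 1.5 gave 1 and 0 by edgeR glmTreat (unadjusted p under 0.05 for 1458 and 1647); DESeq2 gave 868 and 700. Leaving out 1 library gave 171 to 2933 higher and 49 to 4632 lower peaks: 197 and 84 without inhibitor 1, 267 and 99 without inhibitor 2, 171 and 49 without inhibitor 3, 1740 and 1563 without control 1, 199 and 149 without control 2, and 2933 and 4632 without control 3. Gene sums gave 517 and 462; DESeq2 gave 779 higher, gene-start scaling 2692 and 73, thinning 149 and 117, the 6 libraries 15 and 1, the fold threshold 0 and 0 (unadjusted 20 and 13), and leaving out 1 library 95 to 1386 and 31 to 1489.

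Against the late control, gene-start scaling gave 12515 and 4871 peaks (72% higher), total scaling 61.3% higher (against 49.5%), thinning 1593 and 1708, those groups alone 13843 and 15426, the fold threshold 93 and 41, and leaving out 1 library 2971 to 5970 and 2759 to 6695. Against early Fra2 activation, gene-start scaling gave 7059 higher (24.4%), loess offsets 16428, thinning 3329 and 8222, those groups alone 17631 higher, the fold threshold 272 and 1893, and leaving out 1 library 5213 to 8750 and 11563 to 15695. The cause of these shifts was not tested. Fits of the compared groups alone gave fewer calls against the early control and more against the late control and early Fra2 activation.

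Among uncalled gene-start peaks, Ezh1 changed sign to 0.14 under gene-start scaling, 0.01 under total scaling, 0.06 thinned, 0.01 without inhibitor 3 and 0.02 without control 1 (−0.05 to 0.02 over the libraries left out). Cdkn1a changed sign to 0.12 under gene-start scaling, 0.09 with loess, 0.02 without inhibitor 2, 0.08 without control 1 and 0.00 without control 2 (−0.16 to 0.08). Cdkn2a changed sign to 0.01 without control 1 (−0.33 to 0.01). Of 126 named peaks called, 95 remained without control 1, 27 without control 2, 36, 42 and 25 without inhibitors 1 to 3; of 62 named gene sums, 36, 24, 23, 13 and 6. Most were chosen for a call without control 3, so that fit is no check of them. DESeq2 called 283 gene-start peaks lower, against 124. None of these named calls reversed in the alternatives run. With the replicate number as a replicate block, 1294 and 749 peaks and 516 and 422 gene sums were called; the numbers did not pair the libraries (correlations of deviations −0.0137, −0.0191 and −0.0711). At 3 counts the floor was 0.117 to 0.42 CPM, so values under it were not resolved.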
